A study of Mus musculus with 12 samples.

Results

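The comparison described here set 3 male APP/PS1/Hras-/- mice against 3 male APP/PS1 mice by mRNA sequencing of the frontal cortex at 9 months of age. Both groups carried the APP/PS1 transgenes, which place mutant human amyloid precursor protein and presenilin 1 genes in the mouse and lead to amyloid plaques in the brain. The knockout group was also homozygous for a loss of Hras (Hras-/-), and no non-transgenic mice and no Hras knockout without the transgenes entered the comparison. Members were the genes with a raw level of at least 1 CPM (counts scaled to a common library total) in at least 3 of the 6 male libraries, with X and Y genes left out. Of 54532 genes in the deposited count table, 15360 met the level rule, 520 of these lay on X or Y, and 14840 remained. The 6 female libraries of the same 2 genotypes, 3 per genotype, entered the same model, so that the spread between mice was estimated over 12 libraries.

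Of the 14840 genes, 13211 were annotated as protein coding, 346 as long intergenic noncoding RNAs and 337 as processed pseudogenes. At the edge of the level rule, 310 genes reached 1 CPM in exactly 3 of the 6 male libraries, 19 of them in all 3 libraries of 1 genotype and none of the other. A further 354 genes reached it in exactly 2 and were left out. The male libraries held 14609454 to 19385509 counts, and the members took 96.5 to 96.8% of them. Slc17a7, the vesicular glutamate transporter of cortical excitatory neurons, stood between 1081 and 1423 CPM in the 6 libraries, and all 27 listed markers of cortical layers passed the level rule. Levels are given as CPM with TMM scaling of the library totals, and differences as log2 of the knockout over the APP/PS1 level with standard error (SE).

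RNA integrity separated the male groups. The RNA integrity number (RIN), a score of how intact the ribosomal RNA of a sample is, was 7.8, 8.2 and 8.3 in the APP/PS1 males and 8.6, 8.7 and 8.7 in the knockout males. The groups did not overlap, with means of 8.10 ± 0.26 (SD) against 8.67 ± 0.058 (exact permutation p = 0.10, two-sided, the smallest that 3 against 3 allows). In females the means were 8.53 ± 0.058 in APP/PS1 and 8.40 ± 0.10 in knockout mice (exact permutation p = 0.30). Genotype and RIN therefore cannot be told apart from the male libraries alone. Values with RIN as a covariate come from the 12 libraries, where the RIN slope is read from differences within groups. They are given below for each gene list whose median is given and for many of the genes named, and in part also without APP/PS1 male 1, the library with a RIN of 7.8. By the SDs above, RIN spread most within the APP/PS1 males, so the slope rests largely on them, APP/PS1 male 1 in particular. The covariate values extend that slope over the gap between the male groups. Whether a change of value with the covariate reflects RIN or that library was not tested.

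Hras is a small GTPase that cycles between a GTP-bound active and a GDP-bound inactive state at the cell membrane. Exchange factors such as Sos1 load it with GTP, GTPase activators such as Rasa1 switch it off, and active Ras passes the signal of growth factor and neurotrophin receptors to the RAF, MEK and ERK kinases and to PI3K and Akt. In forebrain neurons this pathway is known for its part in synaptic plasticity and activity-dependent transcription, and other Ras proteins share most of its regulators and effectors.

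Hras and its neighbour Lrrc56 are transcribed away from each other, and the short stretch between their start sites is shown because the male groups did not overlap in either gene. In RefSeq on GRCm38.p6 the Hras transcript starts at position 141194004 of chromosome 7 on the minus strand and Lrrc56 at 141194130 on the plus strand. The 124 bases at chr7:141194006-141194129, free of exons in GENCODE M21, read as follows on the minus strand, the strand of Hras, with 1 CCAAT box and 2 GC boxes (GGGCGG) in capitals.
Hras-Lrrc56: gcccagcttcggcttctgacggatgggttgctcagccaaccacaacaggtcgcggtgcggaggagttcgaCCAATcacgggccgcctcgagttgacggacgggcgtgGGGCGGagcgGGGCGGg
These letters describe the reference sequence, not the alleles of these mice. Both strands of the RefSeq windows from 250 bases before to 50 bases after each gene's start were searched. CCAAT occurred in 37.4% and GGGCGG in 35.7% of 32851 windows. Counted by gene, with a match in at least 1 window of the gene, the shares were 42.3% and 67.6% of 10846 tested genes.

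The targeted gene was lower in every knockout library. Hras (ENSMUSG00000025499, chromosome 7, 141189105 to 141194005 on the minus strand in GENCODE M21) stood at 100.1, 79.6 and 84.3 CPM in the APP/PS1 males and at 23.3, 20.9 and 20.5 CPM in the knockout males. The groups did not overlap, and the knockout mean was 24.5% of the APP/PS1 mean. The log2 difference in Hras was -2.03 with an SE of 0.10 (adjusted p = 4.15e-07, edgeR quasi-likelihood test with Benjamini-Hochberg adjustment over 14840 genes). The counts sum over the whole gene and do not say which exons the remaining reads came from, and which exons the knockout allele removes is not stated. In the knockout females Hras stood between 19.3 and 23.2 CPM, against 74.2 to 80.1 CPM in APP/PS1 females.

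Hras was 1 of 2 genes past an adjusted p of 0.05, which is 0.0135% of the genes tested. The other was Gm5905 (ENSMUSG00000110275), a processed pseudogene on the same strand of chromosome 7 at 141177885 to 141178464, downstream of Hras. Gm5905 stood at 0.410, 0.569 and 0.138 CPM in the APP/PS1 males and at 52.5, 59.2 and 51.2 CPM in the knockout males. All knockout libraries lay far above all APP/PS1 libraries, with a log2 difference of 7.09 (SE 0.24, adjusted p = 3.82e-09, edgeR) and a ratio of means of 146. Gm5905 met the level rule only through the 3 knockout males, as 1 of the 19 genes that reached 1 CPM in all libraries of 1 genotype and none of the other, so its place among the genes tested rests on the same difference. The female libraries showed the same separation, at 0.496 to 0.752 CPM in APP/PS1 and 48.8 to 64.6 CPM in knockout mice. Both calls held with RIN as a covariate over the 12 libraries, at -1.64 for Hras (adjusted p = 0.000608, edgeR) and 7.29 for Gm5905 (adjusted p = 0.00036, edgeR), and in each fit that left out 1 male library. In the 6 males alone with the covariate neither passed, at -1.67 for Hras (adjusted p = 0.116, edgeR) and 7.28 for Gm5905 (adjusted p = 0.213, edgeR). With the covariate over 12 libraries 1191 genes (8.03%) had an unadjusted p under 0.05, and no gene other than Hras and Gm5905 passed.

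Lrrc56 (ENSMUSG00000038637, chromosome 7, 141194157 to 141210055 on the plus strand), a gene of motile cilium assembly, was measured at 5.33, 5.69 and 5.73 CPM in the APP/PS1 males. The knockout males stood at 10.7, 8.65 and 11.1 CPM, above every APP/PS1 male, and the ratio of means was 1.82. Its log2 difference of 0.86 (SE 0.14) missed the threshold in edgeR (adjusted p = 0.196) and passed it in DESeq2 (adjusted p = 0.00241). The difference was 0.86 with RIN as a covariate, 0.83 without APP/PS1 male 1 and 0.96 (SE 0.14) in females. The sources do not state whether counting used strand, so reads of overlapping transcripts from either strand cannot be assigned between these adjoining genes with certainty.

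Within 1 Mb of Hras, 44 other genes were tested, and 2 of them, Gm5905 and Lrrc56, had an unadjusted p under 0.05. Over all genes the share was 3.99%, or 592 of 14840, with 329 higher (2.22%). The other genes of the window ran from -0.78 to 0.50 on the log2 scale, with 18 of the 44 above and 26 below the median of all genes, which was 0.0068.

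A second processed pseudogene, Gm13394 (ENSMUSG00000083773, chromosome 2, 28933610 to 28934609, minus strand), separated the male groups without passing the test, and it was chosen after its values were seen. It stood at 1.58, 1.19 and 1.31 CPM in the APP/PS1 males and at 145.5, 136.1 and 145.3 CPM in the knockout males. The log2 difference was 6.70 with an SE of 1.85 (adjusted p = 0.943, edgeR over 12 libraries). The females spread widely, since APP/PS1 females stood at 0.811, 131.6 and 1.59 CPM and knockout females at 159.8, 275.8 and 337.1 CPM, so that 1 APP/PS1 female was near the knockout level. In the fit of the 6 males alone Gm13394 passed (adjusted p = 4.16e-08, edgeR), as it did in DESeq2 (adjusted p = 0.00241). Processed pseudogenes are copies of transcribed genes, and the sources do not state how reads with several alignments were counted, so the counts of both pseudogenes carry that uncertainty.

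**Figure D1:**
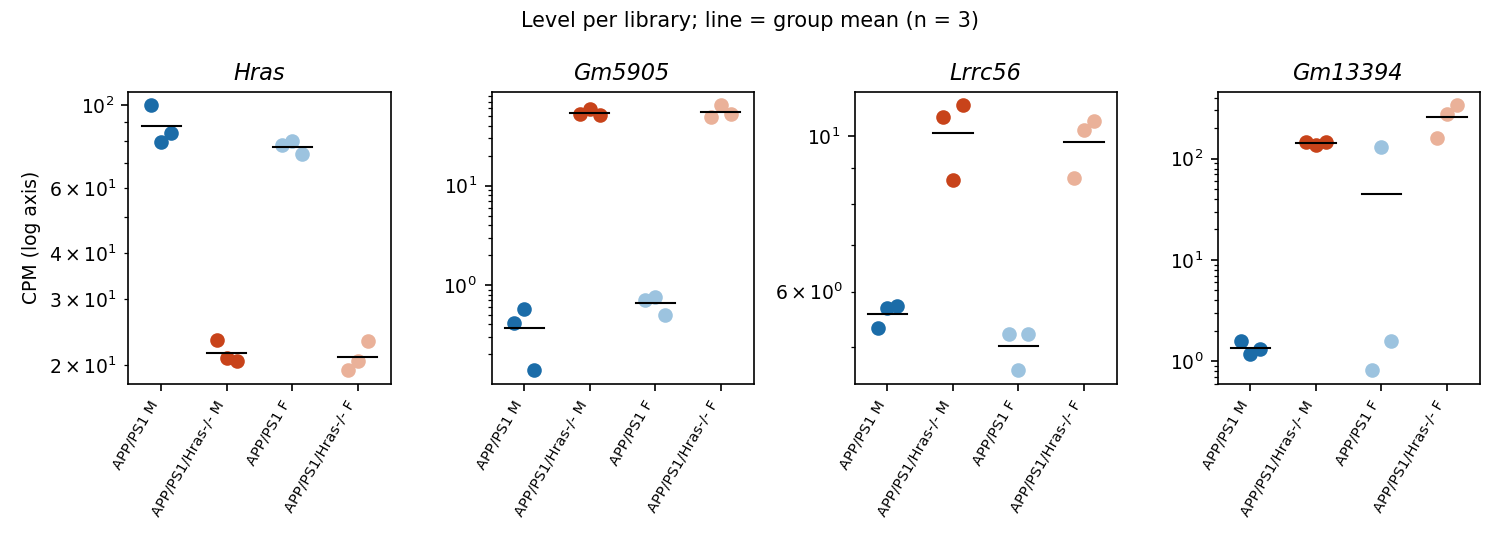
Level of Hras, Gm5905, Lrrc56 and Gm13394 in CPM (log axis) in each of the 12 libraries, by genotype and sex, where each point is 1 library and each line the mean of 3. Knockout males lie below APP/PS1 males for Hras and above them for the other 3 genes, and 1 APP/PS1 female at 131.6 CPM of Gm13394 lies near the knockout mice.

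Outside these genes the comparison gave many differences, none of which passed. The 12 higher and 12 lower genes with the smallest unadjusted p among genes of at least 1 CPM on average all had male groups that did not overlap. Over all genes tested, every knockout male was above every APP/PS1 male for 758 genes (5.11%) and below for 772 (5.2%). Of these, 30 differed by at least 1 on the log2 scale, 19 higher and 11 lower, with Hras, Gm5905 and Gm13394 among them.

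Among the higher genes, Nyap2, a neuronal phosphoprotein that binds PI3K, stood at 27.8, 27.8 and 30.2 CPM in the APP/PS1 males and at 41.1, 36.0 and 35.9 CPM in the knockout males. The difference was 0.40 (SE 0.08, adjusted p = 0.943, edgeR), with 0.35 under the RIN covariate and 0.08 in females. Xylt1, a xylosyltransferase that starts proteoglycan sugar chains, stood at 64.1, 71.7 and 67.6 CPM against 92.0, 80.3 and 82.7 CPM (0.33, SE 0.08), against -0.10 in females. Sema6d, a transmembrane semaphorin of axon guidance, was at 67.0, 75.0 and 69.0 CPM and at 86.6, 88.3 and 79.96 CPM (0.27, SE 0.07). For these genes the lowest knockout male was above the highest APP/PS1 male, and none passed the adjusted threshold. Xylt1 was at 0.30 and Sema6d at 0.16 with RIN as a covariate.

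Bicd1, an adaptor of dynein-based transport, differed by 0.33 (SE 0.08), with 30.6 to 33.2 CPM in the APP/PS1 males and 38.7 to 43.0 CPM in the knockout males. Lamc3, a laminin chain of basement membranes, differed by 0.60 (SE 0.15), from 5.10 to 6.99 CPM against 8.50 to 10.4 CPM. Mut, the mitochondrial methylmalonyl-CoA mutase, was at 28.1 to 31.5 CPM against 32.7 to 44.5 CPM (0.45, SE 0.12), and Mars2, the mitochondrial methionyl-tRNA synthetase, at 19.2 to 21.5 CPM against 25.2 to 28.2 CPM (0.39, SE 0.11). The ubiquitin ligase gene Trim36 was at 0.46 (SE 0.11) and at 0.29 with RIN as a covariate, and the tetraspanin gene Tspan18 at 0.83 (SE 0.24) and at 1.44. With the covariate Bicd1 was at 0.36, Lamc3 at 0.84, Mut at 0.59 and Mars2 at 0.22. Each of these genes was higher in all 3 knockout males than in any APP/PS1 male.

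Soga1 and Dnah6 had their lowest level in APP/PS1 male 1. Soga1 stood at 20.8, 27.6 and 28.0 CPM in the APP/PS1 males and 36.2, 34.5 and 32.1 CPM in the knockout males, a difference of 0.43 (SE 0.12) that was 0.02 (SE 0.18) with RIN as a covariate. Dnah6, a dynein heavy chain of motile cilia, was at 0.527, 2.33 and 1.86 CPM and at 7.57, 8.81 and 10.2 CPM (2.48, SE 0.62), and 1.65 (SE 1.35) with the covariate. The part of RIN in these differences was not tested apart from genotype within males.

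The lower genes with the smallest p included Timmdc1, an assembly factor of respiratory complex I, at 19.1, 17.3 and 17.3 CPM in the APP/PS1 males and 13.2, 13.2 and 14.1 CPM in the knockout males (-0.41, SE 0.10). Uqcc2, an assembly factor of complex III, was at 59.3, 59.1 and 61.5 CPM against 41.3, 46.2 and 51.2 CPM (-0.38, SE 0.10). Ndufc1, a subunit of complex I, was at 29.96, 28.1 and 29.7 CPM against 23.05, 25.1 and 23.2 CPM (-0.30, SE 0.09). In each of these the highest knockout male was below the lowest APP/PS1 male, and with RIN as a covariate the differences were -0.27, -0.49 and -0.22 in the same order. Adjusted p was 0.943 for each in edgeR.

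Gapdh, the glycolytic glyceraldehyde-3-phosphate dehydrogenase often used as a reference gene, stood at 59.9, 58.0 and 58.7 CPM in the APP/PS1 males and at 41.6, 39.9 and 44.6 CPM in the knockout males. The male difference was -0.49 (SE 0.13) and the female difference -0.53 (SE 0.13), with knockout females at 29.4 to 43.1 CPM and APP/PS1 females at 43.7 to 53.8 CPM. Gapdh has many processed pseudogene copies in the mouse genome, so its count depends on how reads with several alignments were treated. Rpl34-ps1, a ribosomal protein pseudogene in the same situation, was at 15.9 to 22.8 CPM against 6.29 to 13.7 CPM (-1.05, SE 0.28).

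Of the remaining lower genes, Rnaseh2c, a subunit of ribonuclease H2, differed by -0.63 (SE 0.15) and the tropomyosin gene Tpm2 by -0.57 (SE 0.15). Rer1, a retrieval receptor between Golgi and endoplasmic reticulum, differed by -0.24 (SE 0.07), and Espn, an actin bundling protein, by -0.85 (SE 0.23). Adamts13 (-1.21, SE 0.32) and the noncoding RNA Gm33027 (-1.29, SE 0.34) stood at or below 2.11 CPM in the libraries of both groups. So near the level rule of 1 CPM, both may owe their place among the genes tested to the APP/PS1 males, where they were higher. These 6 genes ran from -0.13 (SE 0.38, Espn) to -1.57 (SE 0.63, Gm33027) with RIN as a covariate. Zcchc17 was at 57.8, 47.9 and 48.9 CPM against 41.7, 40.1 and 42.0 CPM (-0.32, SE 0.09), and at 0.011 (SE 0.12) with RIN as a covariate. It was the 1 gene of the 24 whose sign turned with the covariate. Without APP/PS1 male 1 all 24 kept their sign, which the lack of overlap between the groups fixed in advance.

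The named genes also differed in length and in their female values. The union of exons had a median of 8913 bases over the 12 higher genes and 2361.5 over the 12 lower genes, against 4330 over all genes tested. In females 3 of the 12 higher and 4 of the 12 lower genes had the same sign as in males.

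**Figure D2:**
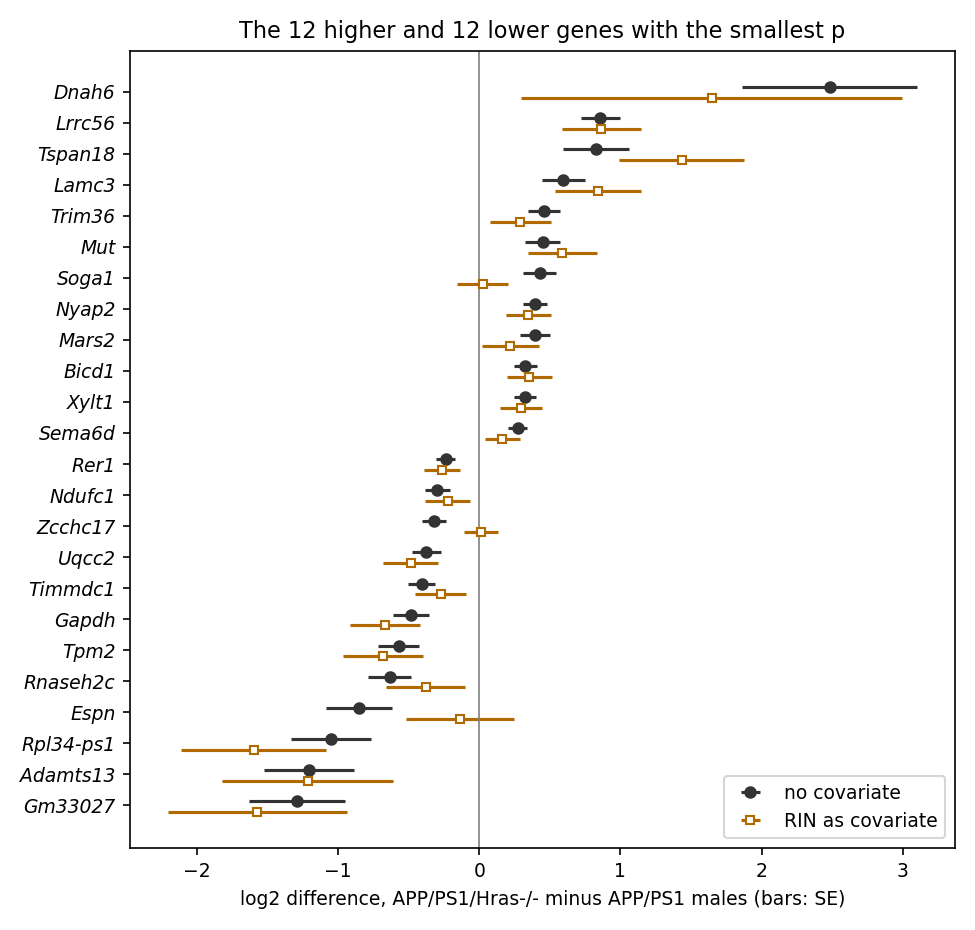
Log2 difference between APP/PS1/Hras-/- and APP/PS1 males for the 12 higher and 12 lower genes with the smallest unadjusted p, with no covariate (filled circles) and with RIN as a covariate (open squares), and bars of 1 SE. Soga1 and Zcchc17 lie near 0 with the covariate, at 0.02 and 0.011, and the bars of the covariate fit are wider.

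The nuclear genes of the respiratory chain lay below the median of all genes almost throughout. These genes encode most subunits of the mitochondrial complexes that pass electrons from NADH and succinate to oxygen (complexes I to IV) and make ATP (complex V). Of 78 listed, 75 were tested, 67 lay below the median of all genes, and their median log2 difference was -0.13 against 0.0068 over all genes. The male groups did not overlap in 37 of the 75, 36 of them lower and 1 higher in knockout mice, against 5.2% and 5.11% over all genes. None passed the adjusted threshold in edgeR, and 18 had an unadjusted p under 0.05, all lower (1.77% of all genes were lower at that p).

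By complex the values were as follows, with no test of a difference between complexes. In complex I, which takes electrons from NADH, 30 of 35 members lay below the median of all genes, with a list median of -0.12 and 16 members lower without overlap. In complex II, the succinate dehydrogenase, the count was 3 of 4 with a median of -0.10, and in complex III, the cytochrome c reductase, 7 of 9 with a median of -0.13. All 10 members of complex IV, the cytochrome c oxidase, and all 16 of complex V, the ATP synthase, lay below the median of all genes, with list medians of -0.16 and -0.13. The medians with RIN as a covariate were -0.058, -0.11, -0.079 and -0.098 for complexes I to IV and 0.013 for complex V, where 8 of 16 members lay below the median of all genes. Without APP/PS1 male 1 they ran from -0.072 in complex III to -0.14 in complex IV.

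Uqcrq, a small subunit of complex III, stood at 71.1, 61.6 and 61.7 CPM in the APP/PS1 males and at 52.7, 56.7 and 50.6 CPM in the knockout males (-0.28, SE 0.09). Cox8a, a subunit of complex IV, stood at 215.5, 204.4 and 208.0 CPM against 155.9, 174.9 and 180.9 CPM (-0.30, SE 0.10). Atp5e, the epsilon subunit of complex V, stood at 76.1, 61.0 and 58.8 CPM against 52.7, 51.5 and 55.2 CPM (-0.30, SE 0.10). The groups did not overlap in any of these 3, and APP/PS1 male 1 was the highest of the 6 libraries in each. Adjusted p was 0.943 in edgeR for all of them.

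Ndufb8 of complex I was at 51.7 to 55.6 CPM in the APP/PS1 males and 46.5 to 48.5 CPM in the knockout males (-0.19, SE 0.07), and Cox7a2l, which takes part in joining complexes III and IV, at 117.3 to 133.4 CPM against 103.4 to 114.2 CPM (-0.21, SE 0.07). With RIN as a covariate Ndufb8 was at -0.17 and Cox7a2l at -0.019, whereas Atp5e was at 0.12 on the other side of 0. The list as a whole had a median of -0.062 with the covariate, with 48 of 75 below the median of all genes. Without APP/PS1 male 1 it was -0.090, with 71 of 75 below. In females the median was 0.065 and 7 of 75 lay below the median of all genes.

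Expressed as the median over the 75 members of log2 CPM centred on each gene's mean over the 6 male libraries, the list stood at 0.12, 0.030 and 0.041 in the APP/PS1 males and at -0.10, -0.049 and -0.037 in the knockout males. The groups did not overlap, APP/PS1 male 1 was the highest and knockout male 1 the lowest. APP/PS1 male 1 had a RIN of 7.8, against 8.2 and 8.3 in its group, and knockout male 1 had 8.6, against 8.7 and 8.7. A relation of the list level with RIN within the groups was not tested. In 64 of the 75 genes the exon length was in the shorter 2 of 5 length classes, whose values are given below. In bulk tissue, fewer cells of a type and less RNA per cell cannot be told apart.

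Some respiratory chain genes carry a binding motif of NRF1, a transcription factor of nuclear genes for mitochondria, near their start, and 4 such windows are shown because the motif was more frequent in this list than over all tested genes. The motif was searched as GCGCA, any base and GCGC on both strands of the RefSeq windows (GRCm38.p6) and was found in 18 of 62 respiratory chain genes tested that had a window (29.0%), in 13 of 67 mitochondrial ribosomal protein genes (19.4%), in 5 of 53 cytosolic ribosomal protein genes (9.43%), and in 10.7% of 10846 tested genes. The windows below are the 30 bases around the match in the 4 members with the smallest unadjusted p among those holding it, and Ndufs6 is named only for this reason. All 4 overlap an exon of GENCODE M21, each is on the minus strand, and capitals mark the match.
Ndufa8 chr2:36049349-36049378: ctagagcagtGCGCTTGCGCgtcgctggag
Ndufs6 chr13:73328479-73328508: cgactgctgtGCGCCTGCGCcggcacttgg
Sdhd chr9:50603909-50603938: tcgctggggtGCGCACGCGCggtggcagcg
Atp5c1 chr2:10080430-10080459: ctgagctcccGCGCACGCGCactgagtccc
These genes, 2 of complex I and 1 each of complexes II and V, had differences of -0.22 (SE 0.08, Ndufa8), -0.23 (SE 0.09, Ndufs6), -0.14 (SE 0.08, Sdhd) and -0.11 (SE 0.06, Atp5c1). The knockout males were below all APP/PS1 males in each, for example 59.0, 61.9 and 63.4 CPM against 65.3, 65.1 and 73.3 CPM in Sdhd. A match in these letters is a description of the reference and not a measured site.

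The 12 tested respiratory chain genes encoded in mitochondrial DNA did not lie on the same side. Their median was 0.092, with 3 of 12 below the median of all genes, and they ran from -1.73 to 1.31. The list median was 0.36 with RIN as a covariate and 0.14 without APP/PS1 male 1. mt-Nd4l, a complex I subunit, was at 1.76, 1.55 and 1.24 CPM in the APP/PS1 males and at 1.69, 5.05 and 3.32 CPM in the knockout males (1.14, SE 0.37), and mt-Nd6 at 18.8 to 22.6 CPM against 20.6 to 35.6 CPM (0.40, SE 0.18). The lowest value, in mt-Co2, rested on 1 library. It stood at 149.6 CPM in APP/PS1 male 2 and between 17.5 and 20.3 CPM in the other 5 male libraries, and without that library its difference was 0.0068 in place of -1.73.

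Mitochondrial ribosomal proteins, which translate the mitochondrial messages, lay on the same side as the nuclear respiratory chain genes. Of 76 tested, 59 lay below the median of all genes, with a list median of -0.089. Lower without overlap were 18 and higher 1, against 5.2% and 5.11% over all genes. Mrps34 stood at 24.9, 21.4 and 23.2 CPM in the APP/PS1 males and 18.4, 17.7 and 19.2 CPM in the knockout males (-0.33, SE 0.10), and Mrpl28 at 37.4 to 45.5 CPM against 31.6 to 32.8 CPM (-0.34, SE 0.12). With RIN as a covariate the list median was 0.029, with 31 of 76 below the median of all genes, and without APP/PS1 male 1 it was -0.068.

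Cytosolic ribosomal proteins gave a different pattern, although 63 of 74 also lay below the median of all genes. Their list median was -0.073. The groups did not overlap in 4 of the 74 members, all lower, a share near the 5.2% over all genes. The list stood at 0.18, -0.0037 and -0.098 in the APP/PS1 males and at -0.023, 0.021 and -0.10 in the knockout males, so that APP/PS1 male 1 alone lay above the knockout range. Without APP/PS1 male 1 the median turned to 0.015, with 35 of 74 below the median of all genes, and with RIN as a covariate it was 0.19. Rps13 of the small subunit stood at 74.7 to 86.9 CPM against 65.7 to 74.4 CPM (-0.18, SE 0.08), and Rpl8 of the large subunit at 324.5, 252.0 and 239.8 CPM against 225.5, 246.5 and 225.6 CPM (-0.23, SE 0.11). Rpl8 overlapped between the groups, with APP/PS1 male 1 the highest library.

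Among the glycolytic enzymes, all 15 tested lay below the median of all genes, with a list median of -0.10. Groups did not overlap in 3 of the 15, all lower, against 5.2% lower over all genes. Gapdh, described above, had the lowest value of the list. With RIN as a covariate the median was 0.031, and without APP/PS1 male 1 it was -0.075. The list was at 0.081 in females.

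**Figure D3:**
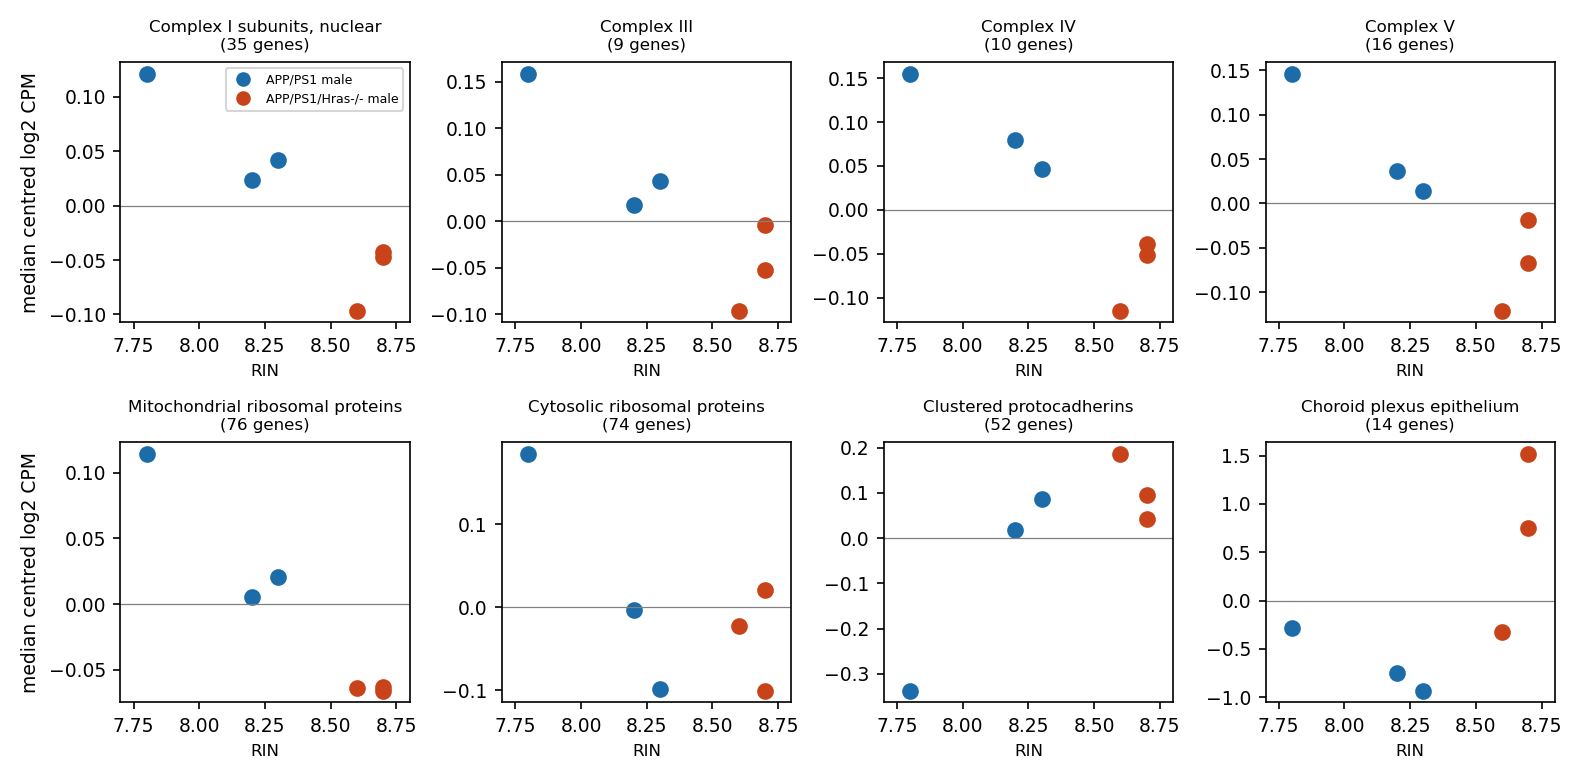
Median over the members of a gene list of log2 CPM centred on each gene's mean over the 6 male libraries, plotted against the RIN of the library, for APP/PS1 males (blue) and APP/PS1/Hras-/- males (orange). Each point is 1 library. Complexes I, III, IV and V and the mitochondrial ribosomal proteins show no overlap between the groups, whereas cytosolic ribosomal proteins and clustered protocadherins are set apart by APP/PS1 male 1 at a RIN of 7.8, at 0.18 and -0.34.

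The differences varied with gene length and base composition across the whole table. When the genes were split into 5 classes of exon length, from 57 to 2341 bases in the shortest class to 7496 to 123179 in the longest, the median male difference was -0.057, -0.031, -0.0017, 0.023 and 0.074 from shortest to longest. The share of genes with every knockout male below every APP/PS1 male went from 9.51% in the shortest class to 1.48% in the longest, and the share with every knockout male above went from 2.63% to 9.94%. Split by the GC content of the longest transcript, the median was 0.065 in the class of lowest GC and -0.076 in the class of highest GC.

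This pattern lay mostly in 1 library. The median centred level of the shortest class was 0.11 in APP/PS1 male 1 and from -0.034 to 0.0076 in the other 5 male libraries, and that of the longest class was -0.12 against 0.00089 to 0.039. Without APP/PS1 male 1 the class medians ran from -0.017 for the shortest to 0.031 for the longest genes, and from 0.020 to -0.011 for GC. In females they ran from 0.0069 to -0.019 by length. With RIN as a covariate the order by length turned, from 0.062 for the shortest to -0.078 for the longest genes.

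**Figure D4:**
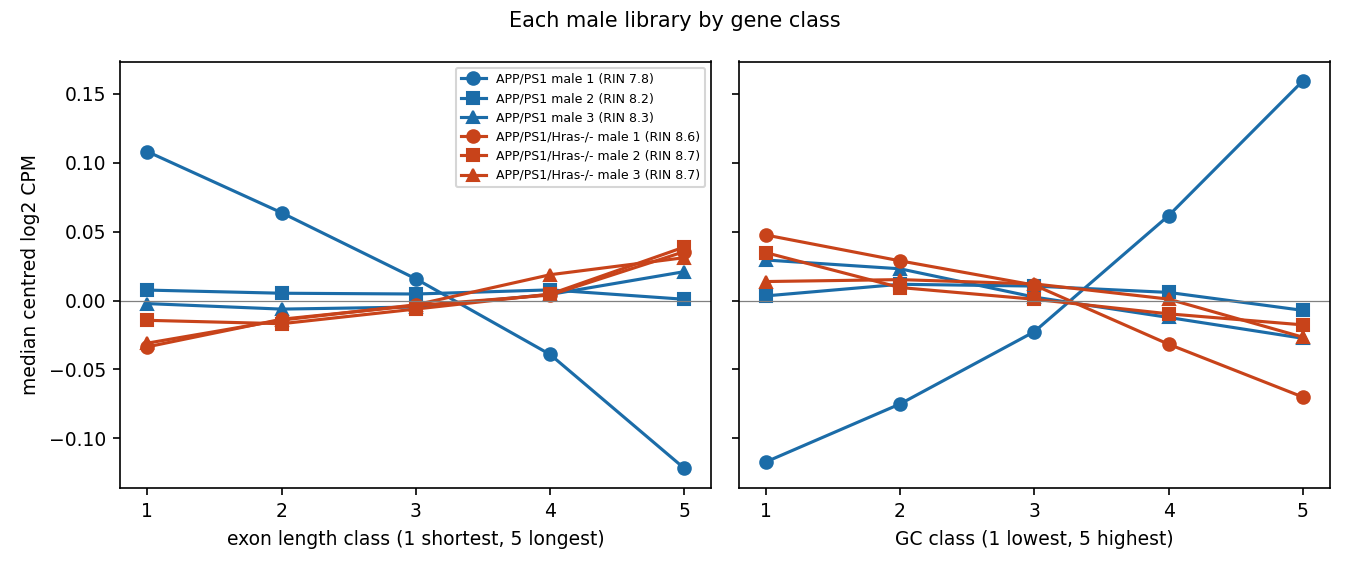
Median centred log2 CPM of each male library in 5 classes of exon length (left, 1 shortest) and of GC content (right, 1 lowest), with the RIN of each library in the legend. APP/PS1 male 1 runs from 0.11 to -0.12 over the length classes, and the other 5 libraries lie between -0.034 and 0.039.

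The RIN slope itself, fitted within the 4 groups over 12 libraries, was past an adjusted p of 0.05 for 1 gene in edgeR, or 0.00674% of those tested, and at an unadjusted p under 0.05 for 2144 genes (14.4%). The called gene was Gabrb2, a beta subunit of the GABA-A receptor, which was at 43.7 CPM in APP/PS1 male 1, at 93.1 and 103.8 CPM in the other APP/PS1 males and at 90.1 to 101.1 CPM in the knockout males, with a slope of 2.62 on the log2 scale per RIN unit. Without APP/PS1 male 1 no gene passed for the slope in edgeR, with 763 at an unadjusted p under 0.05. The genotype effect of Gabrb2 in males was 0.26 (SE 0.28), and -0.033 without that library.

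The clustered protocadherins, neuronal adhesion molecules encoded in tandem arrays, some with shared last exons, were the list of neuronal genes farthest above the median of all genes. Of 52 tested, 42 lay above it, with a list median of 0.22. Higher without overlap were 8 and lower 1, against 5.11% and 5.2% over all genes. Pcdhga1 stood at 2.87, 5.74 and 3.73 CPM in the APP/PS1 males and at 5.76, 7.68 and 6.39 CPM in the knockout males (0.68, SE 0.24), and Pcdhga12 at 11.2 to 13.6 CPM against 15.1 to 17.2 CPM (0.36, SE 0.14). Because some of the members share exons, the assignment of reads to those members is uncertain. The list stood at -0.34 in APP/PS1 male 1 and between 0.018 and 0.19 in the other 5 male libraries. Its median was 0.055 without that library and -0.29 with RIN as a covariate. Of 26 tested genes of postsynaptic scaffolds and CaMKII, 15 lay below the median of all genes. Their list median was -0.022, and -0.0845 with RIN as a covariate. The member with the smallest unadjusted p was Camk2b, the beta subunit of the CaMKII kinase (-0.17, SE 0.08). Camk2b stood at 920.1 to 953.0 CPM in the APP/PS1 males and 768.9 to 873.7 CPM in the knockout males.

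Of 13 Ras protein genes tested, Hras alone passed the threshold. Nras stood at 44.8 to 49.9 CPM in the APP/PS1 males and at 48.8 to 52.5 CPM in the knockout males (0.12, SE 0.09), and Rras at 7.79 to 8.13 CPM against 5.18 to 8.17 CPM (-0.26, SE 0.17). The groups overlapped in both genes, and the differences in females were -0.06 (SE 0.09) and -0.16 (SE 0.17).

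Of 25 exchange factors and GTPase activators of Ras tested, 16 lay above the median of all genes, with a list median of 0.046. Higher without overlap were 4 members, against 5.11% over all genes. The list was on the other side with RIN as a covariate, with a median of -0.12 and 19 of 25 below the median of all genes, and without APP/PS1 male 1 the median was 0.040. Rasa2, a GTPase activator, was at 30.4, 34.4 and 36.4 CPM against 37.2, 44.4 and 39.6 CPM (0.26, SE 0.12), and Sos2, an exchange factor, at 30.4, 37.4 and 36.0 CPM against 40.1, 40.1 and 38.5 CPM (0.19, SE 0.09). Both had their lowest level in APP/PS1 male 1, and with RIN as a covariate they were at -0.089 and -0.12. Neither passed the threshold (adjusted p = 0.943, edgeR).

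Downstream of Ras, the 18 tested genes of the RAF, MEK and ERK kinases and their scaffolds had a median of 0.025, with 8 below the median of all genes. Map2k2, which encodes the kinase MEK2, was at 109.3, 82.1 and 82.1 CPM against 73.6, 80.2 and 78.1 CPM (-0.24, SE 0.12). Map2k2 was highest in APP/PS1 male 1, and its difference changed sign with RIN as a covariate. The 21 feedback and output genes of ERK signalling had a median of -0.099, with 12 below the median of all genes. Lower without overlap were 2 and higher 1, against 5.2% and 5.11% over all genes. The medians of these lists, kinases first, were 0.094 and -0.32 with RIN as a covariate. The feedback list ran from -0.12 without APP/PS1 male 1 to -0.024 without APP/PS1 male 2 when 1 male library was left out, and in females its median was 0.079. Dusp7, a phosphatase of ERK, stood at 68.3, 79.8 and 66.9 CPM against 50.7, 62.9 and 62.2 CPM (-0.29, SE 0.11), and the transcription factor gene Myc at 3.10, 2.95 and 2.83 CPM against 2.39, 1.99 and 2.004 CPM (-0.48, SE 0.22). In both genes every knockout male was below every APP/PS1 male, and the female differences were 0.19 and 0.17.

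In the PI3K, Akt and mTOR list of 33 genes the median was 0.0029 (-0.020 with RIN as a covariate). Lower without overlap were 5 members, against 5.2% over all genes. Pik3r3, a regulatory subunit of PI3K, stood at 47.1, 43.9 and 48.4 CPM against 38.1, 36.8 and 42.4 CPM (-0.25, SE 0.08), and its value was -0.25 with RIN as a covariate. Of 12 genes of protein prenylation and CAAX processing, the steps that anchor Ras to membranes, 9 lay below the median of all genes, with a list median of -0.044 (-0.065 with the covariate, when 6 of 12 lay below). Lypla2, a thioesterase acting on palmitoylated proteins, was at 58.5 to 71.6 CPM against 51.2 to 55.0 CPM (-0.25, SE 0.10) and at 0.10 with the covariate.

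Of 26 tested genes that make and clear amyloid, 12 lay below the median of all genes, with a list median of 0.041. Lower without overlap was 1 member, against 5.2% over all genes. The median was -0.047 with RIN as a covariate, with 15 of 26 below, and without APP/PS1 male 1 it was 0.0043. Lrp8, a reelin and apolipoprotein E receptor, was at 86.3 to 100.6 CPM in the APP/PS1 males and 97.0 to 113.7 CPM in the knockout males (0.17, SE 0.08), and Psenen, a subunit of gamma-secretase, at 24.1 to 26.0 CPM against 21.7 to 23.9 CPM (-0.15, SE 0.08). Of 40 markers of plaque-associated microglia, 17 lay below the median of all genes, with a list median of 0.033 and no member without overlap. With the covariate 29 of the 40 lay below it, with a median of -0.19, and in females the median was -0.24. Fcer1g, an Fc receptor chain of these cells, was at 7.86 to 8.43 CPM against 6.26 to 16.2 CPM (0.47, SE 0.30).

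Markers of homeostatic microglia and of reactive astrocytes lay mostly above the median of all genes in the fit without a covariate and mostly below it with RIN as a covariate, whereas those of oligodendrocyte precursors lay mostly above it in both. Homeostatic microglia markers had a median of 0.15, with 18 of 22 above, and the list stood at -0.21, 0.094 and -0.10 in the APP/PS1 males and 0.083, 0.32 and -0.15 in the knockout males, which overlapped. The median was -0.099 with RIN as a covariate, with 14 of 22 below the median of all genes, 0.037 without APP/PS1 male 1, -0.0065 without knockout male 2 and -0.23 in females. The 22 markers of astrocytes had a median of 0.090, which was 0.078 with the covariate, -0.012 without knockout male 2 and -0.13 in females. Cd33, a sialic acid receptor of microglia, was at 11.9 to 17.4 CPM against 15.9 to 23.3 CPM (0.40, SE 0.17), and Sall1, a transcription factor of microglial identity, at 28.4 to 33.6 CPM against 33.6 to 38.5 CPM (0.23, SE 0.09).

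Reactive astrocyte markers had a median of 0.10, which was -0.059 without knockout male 2, with 14 of 21 above the median of all genes. It was -0.18 with RIN as a covariate, with 15 of 21 below, and in females it was -0.14. Cp, which encodes ceruloplasmin, stood at 11.4, 12.6 and 11.8 CPM in the APP/PS1 males and 17.8, 16.8 and 13.3 CPM in the knockout males (0.42, SE 0.14), and Emp1, a membrane protein of these cells, at 1.05 to 2.28 CPM against 3.09 to 4.08 CPM (1.03, SE 0.37). The 18 markers of oligodendrocyte precursors had a median of 0.13, with 14 above the median of all genes. Higher without overlap were 4, against 5.11% over all genes. With the covariate the median was 0.28, again with 14 of 18 above, and in females it was -0.17. Pdgfra, the growth factor receptor that defines these cells, stood at 47.2, 52.7 and 49.1 CPM in the APP/PS1 males and 79.6, 69.1 and 53.5 CPM in the knockout males (0.44, SE 0.13), with 0.49 under the RIN covariate. Cspg4, the NG2 proteoglycan of the same cells, was at 25.3 to 28.5 CPM against 30.3 to 36.1 CPM (0.32, SE 0.12). In females the differences were -0.42 for Pdgfra and -0.30 for Cspg4.

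Markers of tissue that borders the cortex varied widely between libraries. Of 20 listed markers of the choroid plexus epithelium 14 were tested, all above the median of all genes, with a list median of 1.33. Near 1 CPM, a marker could meet the level rule through the libraries in which it was high. The list stood at -0.28, -0.75 and -0.93 in the APP/PS1 males and -0.33, 1.52 and 0.75 in the knockout males, with knockout male 1 inside the APP/PS1 range. Ttr, the transthyretin gene and the most abundant of these markers, stood at 187.9, 27.7 and 29.7 CPM against 9.84, 484.6 and 319.5 CPM, and Prlr, the prolactin receptor, at 0.673 to 1.46 CPM against 3.82 to 8.11 CPM (2.47, SE 1.48). The coagulation factor gene F5 was at 0.621 to 1.23 CPM in the APP/PS1 males and 0.408, 11.3 and 5.64 CPM in the knockout males. No marker of this list passed the threshold, and in females the list median was -1.91. It was 1.65 with RIN as a covariate and 1.69 without APP/PS1 male 1.

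Of 28 listed markers of ependyma and motile cilia 18 were tested, and 16 of these lay above the median of all genes, with a list median of 0.77. Higher without overlap were 6, against 5.11% over all genes. Rsph4a, a radial spoke protein of cilia, stood at 1.64, 1.19 and 2.07 CPM against 6.23, 2.79 and 2.19 CPM (1.21, SE 0.43), and Cfap44, a cilium protein, at 4.48 to 5.23 CPM against 6.89 to 11.6 CPM (0.84, SE 0.31). Dnah6 belongs to this list, and Lrrc56, named above for the Hras locus, is also a gene of motile cilia. The list median was -0.80 in females and 0.034 with RIN as a covariate. The part of ependymal or choroid plexus tissue in the values of Dnah6 was not tested.

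Leptomeningeal fibroblast markers had a median of 0.19 with 18 of 23 above the median of all genes. It was 0.95 with RIN as a covariate, 0.40 without APP/PS1 male 1 and -0.070 without knockout male 1. Endothelial and mural cell markers had a median of 0.13 with 20 of 28 above, among them Tek, the angiopoietin receptor (0.30, SE 0.13), and Abcb1a, an efflux transporter of the blood-brain barrier (0.30, SE 0.13). The list median was 0.0098 with RIN as a covariate, with 14 of 28 below the median of all genes, and Tek was at 0.41 and Abcb1a at -0.11. Striatal projection neuron markers ran from -0.74 in APP/PS1 male 1 to 0.76 in APP/PS1 male 3, and in the knockout males from -0.56 to 0.71. Their median difference was -0.12, which was -0.80 with RIN as a covariate and 0.29 without APP/PS1 male 3. Of 20 listed markers of thalamic and hypothalamic neurons 10 were tested, 9 of them below the median of all genes, with a list median of -0.19 that was -0.29 with the covariate and 0.063 without APP/PS1 male 2. Of 6 red blood cell genes 2 were tested, both above the median of all genes. Within the striatal list Pdyn, the prodynorphin gene, stood at 28.0, 34.0 and 40.6 CPM against 26.7, 20.8 and 27.7 CPM (-0.45, SE 0.14), and Rasd2, a Ras-related GTPase of striatal neurons, at 68.8 to 144.8 CPM against 53.1 to 86.1 CPM (-0.51, SE 0.25).

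Of 19 circadian clock genes 16 lay below the median of all genes, with a list median of -0.091 (-0.25 with RIN as a covariate) and no member without overlap. With 1 male library left out this median ran from -0.19 without knockout male 3 to -0.019 without knockout male 1, and in females it was 0.071. Dbp, a clock-controlled transcription factor, was at 72.0 to 92.0 CPM against 61.4 to 76.8 CPM (-0.27, SE 0.13). Of 29 interferon response and antigen presentation genes 21 lay below the median of all genes, with a list median of -0.12, which was 0.12 without APP/PS1 male 2. It was -0.55 with RIN as a covariate, with 26 of 29 below, and in females it was 0.066. Ifi44, an interferon-induced gene, stood at 2.99, 4.14 and 3.04 CPM in the APP/PS1 males and 1.22, 2.20 and 1.57 CPM in the knockout males (-1.02, SE 0.37).

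**Figure D5:**
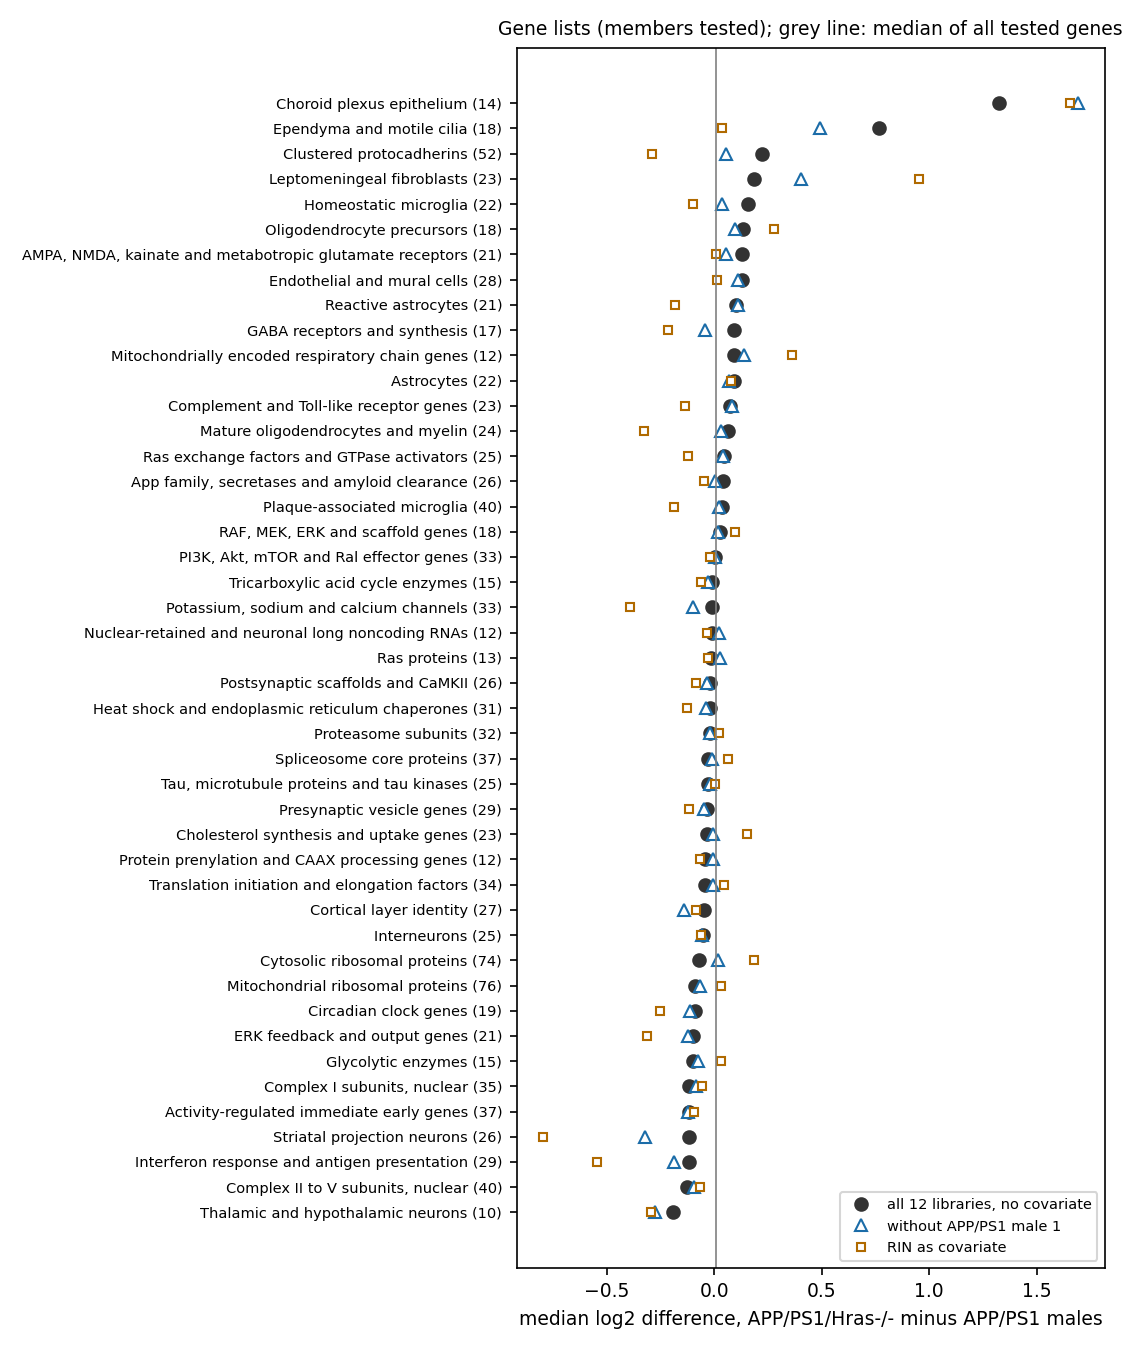
Median log2 difference between APP/PS1/Hras-/- and APP/PS1 males over the tested members of each gene list (number in brackets), in the fit of 12 libraries without a covariate (filled circles), without APP/PS1 male 1 (triangles) and with RIN as a covariate (squares). The grey line is the median of all tested genes, 0.0068. Complex I and complex II to V subunits taken as 2 lists lie to the left of it in all 3 fits, although complex V alone is at 0.013 with the covariate, and cytosolic ribosomal proteins and clustered protocadherins change side with the covariate, to 0.19 and -0.29.

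No gene passed a test of the difference between the male and the female genotype effect. The count was 0 of 14840 at an adjusted p under 0.05 in edgeR (0.0%) and 0 in DESeq2, with 1043 at an unadjusted p under 0.05 in edgeR (7.03%). Hras differed by -0.15 between the sexes and Gm5905 by 0.69, with unadjusted p of 0.319 and 0.104 in edgeR. Among the genes above, Pdgfra (0.86), Lamc3 (0.93) and Rnaseh2c (-0.87) had unadjusted p of 0.000471, 0.000887 and 0.00129 for that difference in edgeR, each with an adjusted p of 0.681. The list medians were not tested for a difference between sexes.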

How the data were processed

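Frontal cortex mRNA was measured in 12 libraries, 3 in each of 4 groups of genotype and sex, and the 6 male libraries are described here. The table deposited by the authors holds raw read counts, 1 column for each library. The library kit was TruSeq Stranded mRNA, per the labels' protocols. Trimming with Trimmomatic 0.33, quality checks with FastQC 0.11.7, alignment software HISAT2 2.1.0 and the counter featureCounts appear in the submitters' processing notes, with mm10 and mm9 in unstated roles. The annotation, the strand setting and the treatment of multiply aligned reads were not stated.

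Genes were matched to GENCODE M21 on GRCm38. 7 of the 14840 genes had no match, so their chromosome is unknown. Counts were scaled by TMM and fitted in R 4.3.3 with edgeR 4.0.16 (robust quasi-likelihood F test, 4 group means, 12 libraries), with Benjamini-Hochberg adjustment over all genes tested and a threshold of 0.05. The SE was derived from the F statistic. RIN slopes came from a model of 4 group means plus RIN, and the difference between sexes from an interaction contrast. RIN and Hras were also compared by exact permutation tests, which for Hras gave p = 0.10, the smallest possible. The fit was tested on simulated data. Each library has its own number in the labels, and p-values measure the spread between these libraries.

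The 46 gene lists are described by counts and medians, with no set test. The genes and lists were chosen with earlier results of these data known. Named genes are Hras, genes past the threshold, the 12 higher and 12 lower genes with the smallest unadjusted p and a mean of at least 1 CPM, up to 4 members of a list with the smallest p, and genes within 1 Mb of Hras at an unadjusted p under 0.05. Slc17a7, Ttr, Gabrb2, Gm13394 and the sequence windows stand outside or beside that rule as cell type markers, slope result, list members or genes chosen after their values were seen. 1 gene that the rule took is not reported here. Lists were described where at least 80% of their tested members lay on 1 side of the median of all genes, or for the Ras, amyloid, respiratory chain, ribosomal and marker lists. The medians of the mature oligodendrocyte, interneuron and cortical layer markers are shown only in the figure of list medians. The interferon and postsynaptic lists are described outside this list rule. Alternatives were DESeq2 1.42.0, limma-voom (limma 3.58.1), scaling by RLE or upper quartile, other filters, X and Y genes kept, males alone, RIN as a covariate, non-robust dispersions, a threshold of 0.1, gene span in place of exon length, and each library left out in turn. Sequences came from RefSeq promoter windows on GRCm38.p6.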

Additional observations from a re-analysis of the deposited data

How the results depend on the processing

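The count of genes past the threshold in males, 1 higher and 1 lower, was 2 higher in the fit of the 6 males alone, 3 higher in DESeq2 and 0 lower with RIN as a covariate in the 6 males alone. In that last fit Hras was at -1.67 (adjusted p = 0.116, edgeR) and Gm5905 at 7.28 (adjusted p = 0.213, edgeR), and the 1 gene called was Gm13394 at 7.09. Leaving out 1 male library gave 1 higher and 1 lower gene each time. The RIN slope called 0 genes in the 6 males alone, 121 without a filter on low counts, and 0 to 2 with 1 library left out: 0 without APP/PS1 male 1 or 3, and 2 without APP/PS1 female 2 or APP/PS1/Hras-/- female 2. The difference between the sexes stayed at 0 genes under the 3 alternatives tried. The cause of these changes was not tested.

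Of the 77 genes traced over the settings, none changed sign under another scaling, tool or filter, where the filter of 5 CPM in 3 male libraries kept 66 of them. With RIN as a covariate over 12 libraries 15 changed sign: Abcb1a -0.11, Atp5e 0.12, Cd33 -0.080, Dbp 0.057, Gabrb2 -1.13, Lypla2 0.10, Map2k2 0.27, Ndufa8 0.033, Nras -0.030, Pcdhga1 -0.19, Rasa2 -0.089, Rpl8 0.16, Slc17a7 0.21, Sos2 -0.12 and Zcchc17 0.011. With the covariate in the 6 males alone 18 did: Abcb1a -0.16, Atp5e 0.12, Cd33 -0.079, Dbp 0.042, Emp1 -0.033, Gabrb2 -1.06, Lrp8 -0.017, Lypla2 0.12, Map2k2 0.23, Ndufa8 0.035, Ndufs6 0.053, Pcdhga1 -0.11, Rasa2 -0.052, Rpl8 0.25, Rps13 0.030, Slc17a7 0.15, Soga1 -0.011 and Sos2 -0.099. With 1 male library left out, Gabrb2 ran from -0.033 (without APP/PS1 male 1) to 0.48 and mt-Co2 from -2.16 to 0.0068 (without APP/PS1 male 2). Of 53 list and sublist medians, 21 crossed the median of all genes with RIN as a covariate over 12 libraries, 0 under RLE or upper quartile scaling, and 3 to 11 with 1 male library left out. The medians of the shortest and longest gene classes were -0.053 and 0.072 by genomic span. No paired analysis was possible because the replicate numbers come from accession order and pair no mice. The male totals of 14609454 to 19385509 counts leave genes near 1 CPM with few reads per library.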
